A study of Mus musculus with 15 samples.

Results

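Interferons are secreted proteins, and those of type I are released by cells on sensing viral or other nucleic acids. Type I interferons act through the receptor IFNAR and a complex that includes STAT2 and IRF9, which binds interferon-stimulated response elements in target promoters. Interferon-gamma acts through the receptor IFNGR and on promoters with gamma-activated sites. The products block viral replication, degrade RNA, coat vacuoles with GTPases and load peptides on MHC class I molecules. In humans, muscle fibres are known to express such genes in dermatomyositis.

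The 44 interferon response genes described here were chosen by name as known interferon targets, and 30 were grouped as type I interferon induced and 14 as interferon-gamma induced. Of the 44, 43 had a probe listed on the array (all but Ifi44), out of 19057 named genes. Signal was above noise on at least 5 arrays for 36 members (24 type I and 12 interferon-gamma), against 11450 of all named genes. The 7 that did not were Ifit1, Oas1a and Gbp4, above noise on 0 arrays, Ifih1, Xaf1 and Cxcl10, each on 1, and Mx1, on 2.

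RNA of tibialis anterior (TA) muscle was measured on 15 Illumina bead arrays, 1 per male C57BL/6 mouse of 8 to 10 weeks, with 5 arrays labelled for each of 3 groups. The group labelled Ctrl received PBS. The group labelled Dox received doxorubicin, a chemotherapy drug that damages DNA, 20 h before euthanasia. The group labelled Dox + sACVR2B received in addition sACVR2B-Fc, a soluble receptor that binds myostatin and activins, 48 h before doxorubicin. The labels give no genetic change in any group, and the muscle is a mixture of fibres and other cells, so fewer cells of a type and less RNA per cell cannot be told apart.

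Several arrays went against their labels. Cdkn1a, a p53 target induced by DNA damage, had signals of 4301, 294.5, 187.3, 4057 and 4634 on Ctrl arrays 1 to 5. On Dox arrays 1 to 5 the signals were 2359, 131.6, 4013, 3316 and 2694, and on Dox + sACVR2B arrays 1 to 5 they were 4560, 4047, 3623, 209.1 and 358.8. Thus 10 arrays had a signal of 1000 or more and 5 had less, and 6 arrays (Ctrl 1, 4 and 5, Dox 2, Dox + sACVR2B 4 and 5) lay on the other side of 1000 from where DNA damage would place their label. Mdm2, the ubiquitin ligase of p53, stood at 10.71 to 10.89 on the log2 scale on those 5 arrays and at 11.25 to 12.16 on the other 10. Groups are therefore named as labelled throughout. Each comparison was made with all arrays and again without the 6, which were picked by a measured gene, so that calls in the second fit follow that choice and are no separate test of the treatment. Across arrays 43.8% to 43.9% of probes were above noise, and the markers of skeletal muscle (Ckm, Acta1, Myh4 and 5 more) were above noise for 8 of 8.

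Promoter windows were searched for the letters of both interferon elements. In RefSeq windows of GRCm38.p6 from 250 bases before to 50 after the annotated start, 30 members matched by symbol. The core letters GAAANNGAAA, searched on both strands with overlaps allowed, were found in 16 of those 30 (53.3%), in 10 of 20 type I and 6 of 10 interferon-gamma members, against 3.99% of all genes and 3.44% of all 32851 windows. The gamma-activated letters TTCNNNGAA were found in 9 of 30 (30%), against 9.55% of all genes. They were as frequent in both lists, in 6 of 20 type I and 3 of 10 interferon-gamma members. Sequences with a match are shown for 3 type I members and 3 interferon-gamma members above noise, as examples of the 16, 5′ to 3′ on the gene's strand, with every match to the first motif in capitals (TTTCNNTTTC where it lies on the other strand).

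Ifit3 (chr19:34583279-34583578, plus strand): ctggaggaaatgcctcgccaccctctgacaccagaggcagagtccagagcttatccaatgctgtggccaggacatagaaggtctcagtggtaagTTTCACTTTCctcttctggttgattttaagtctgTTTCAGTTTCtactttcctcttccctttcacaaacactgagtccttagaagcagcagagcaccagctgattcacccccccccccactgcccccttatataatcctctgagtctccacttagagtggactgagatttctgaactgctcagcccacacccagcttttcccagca
Rsad2 (chr12:26456403-26456702, minus strand): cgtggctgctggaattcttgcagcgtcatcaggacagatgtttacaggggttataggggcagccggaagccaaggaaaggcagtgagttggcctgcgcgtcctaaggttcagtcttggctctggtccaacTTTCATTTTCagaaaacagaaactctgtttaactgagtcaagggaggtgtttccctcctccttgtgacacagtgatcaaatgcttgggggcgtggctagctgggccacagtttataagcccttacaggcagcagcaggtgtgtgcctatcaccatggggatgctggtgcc
Isg15 (chr4:156200769-156201068, minus strand): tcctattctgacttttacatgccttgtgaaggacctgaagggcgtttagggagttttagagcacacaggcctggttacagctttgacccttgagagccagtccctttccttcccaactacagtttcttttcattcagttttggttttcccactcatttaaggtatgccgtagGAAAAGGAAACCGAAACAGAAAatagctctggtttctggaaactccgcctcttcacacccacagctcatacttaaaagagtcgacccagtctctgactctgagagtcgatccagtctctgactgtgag
Gbp2 (chr3:142620413-142620712, plus strand): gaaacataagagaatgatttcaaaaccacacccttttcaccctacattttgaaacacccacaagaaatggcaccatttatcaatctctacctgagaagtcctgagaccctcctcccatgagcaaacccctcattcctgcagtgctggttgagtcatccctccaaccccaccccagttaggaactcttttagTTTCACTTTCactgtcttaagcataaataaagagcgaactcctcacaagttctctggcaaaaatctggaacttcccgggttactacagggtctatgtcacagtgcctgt
Gbp3 (chr3:142559794-142560093, plus strand): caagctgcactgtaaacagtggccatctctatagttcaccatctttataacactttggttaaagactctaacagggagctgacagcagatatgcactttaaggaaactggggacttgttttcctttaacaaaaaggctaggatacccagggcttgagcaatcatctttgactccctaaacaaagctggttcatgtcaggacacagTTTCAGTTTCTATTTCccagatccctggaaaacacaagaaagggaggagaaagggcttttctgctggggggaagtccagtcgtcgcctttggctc
Irgm1 (chr11:48871371-48871670, minus strand): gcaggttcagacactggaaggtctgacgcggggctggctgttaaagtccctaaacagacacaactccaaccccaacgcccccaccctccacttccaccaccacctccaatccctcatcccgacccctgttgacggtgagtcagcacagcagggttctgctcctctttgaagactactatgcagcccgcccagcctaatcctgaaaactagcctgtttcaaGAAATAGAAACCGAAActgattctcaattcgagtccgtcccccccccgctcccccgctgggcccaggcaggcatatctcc

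Counted from 0 at the annotated start, the matches began at -156 and -122 for Ifit3, at -120 for Rsad2, at -78, -72 and -66 for Isg15, at -59 for Gbp2, at -45 and -39 for Gbp3 and at -30 and -24 for Irgm1. The 3 matches of Isg15, and the pairs of Gbp3 and Irgm1, overlap each other. Irf7 and Oasl2 had no such letters in their windows, which says nothing of other positions.

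Levels are given as log2(signal + 50), so differences of dim genes are understated, and each gene is represented by its probe of highest mean signal. The mean over the 29 type I members with a probe was 7.50, 7.06, 7.12, 7.34 and 7.56 on Ctrl arrays 1 to 5. It was 7.05, 6.97, 7.44, 7.20 and 7.20 on Dox arrays 1 to 5, and 7.45, 7.35, 7.10, 6.95 and 7.23 on Dox + sACVR2B arrays 1 to 5. The groups overlapped widely, with 7.32 ± 0.23 for Ctrl, 7.17 ± 0.18 for Dox and 7.22 ± 0.20 for Dox + sACVR2B (SD, n = 5). Arranged by Cdkn1a instead, the 10 arrays of 1000 or more lay between 7.05 and 7.56 (median 7.34) and the other 5 between 6.95 and 7.23 (median 7.06), a difference of medians of 0.28 beside a spread of 0.16 (SD within these sets of arrays). Of the 10, 6 lay above all of the 5. Dox 1 at 7.05 and Dox + sACVR2B 3 at 7.10 were low with a high Cdkn1a signal, and Dox + sACVR2B 5 was the highest of the 5. As these sets of arrays were made from measured values, no test was run between them.

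Within the Ctrl label, the 3 arrays with high Cdkn1a had type I means of 7.34 to 7.56, and the other 2 had 7.06 and 7.12. Within Dox, the 4 arrays of high Cdkn1a spanned 7.05 to 7.44, and Dox 2 stood at 6.97. Within Dox + sACVR2B, the 3 of high Cdkn1a spanned 7.10 to 7.45 and overlapped with the other 2, at 6.95 and 7.23. The sets therefore did not overlap within Ctrl and Dox.

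The 14 interferon-gamma members varied less. Their mean was 8.17 ± 0.10 for Ctrl, 8.10 ± 0.15 for Dox and 8.04 ± 0.12 for Dox + sACVR2B (SD, n = 5), with all arrays between 7.88 and 8.31. The 10 arrays of high Cdkn1a had 7.92 to 8.31 (median 8.16) and the other 5 had 7.88 to 8.10 (median 8.03), a difference of medians of 0.13 beside a spread of 0.11. Of the 10, 8 lay above all of the 5, while Dox 1, at 7.92, was below 4 of the 5. Within Ctrl, the 3 arrays of high Cdkn1a had 8.19 to 8.30 and the other 2 had 8.04 and 8.10. Within Dox, and within Dox + sACVR2B, the sets overlapped. Highest were Dox 3 at 8.31 and Ctrl 1 at 8.30, which carry different labels.

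**Figure D1:**
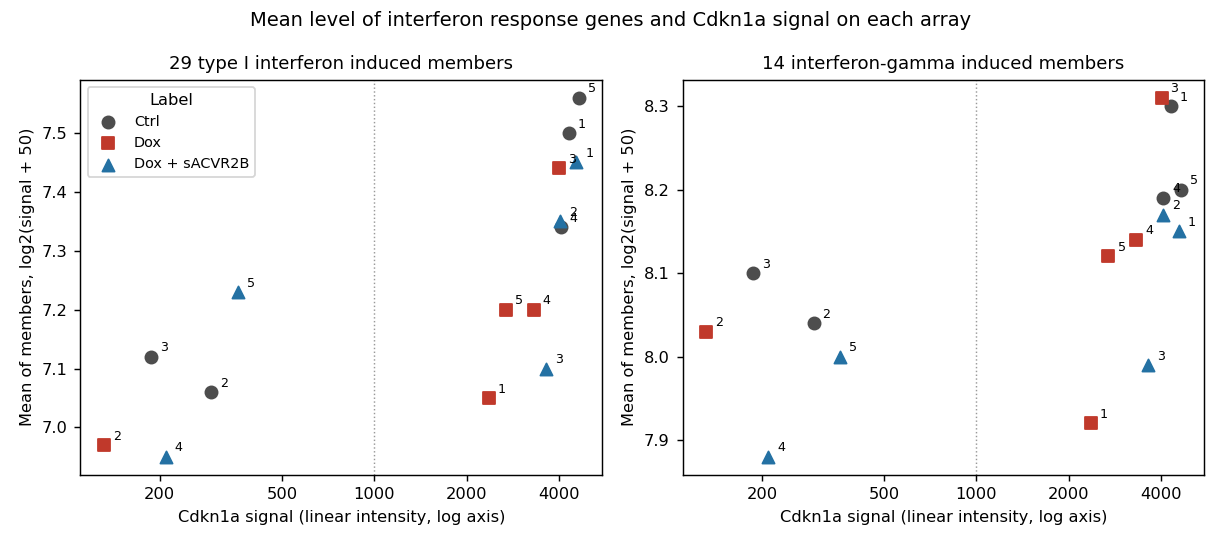
Each point is 1 array, with the Cdkn1a signal on a log axis and the mean log2(signal + 50) of the members on the vertical axis, coloured by label and numbered by replicate. The 5 arrays left of the dotted line at 1000 have type I means of 6.95 to 7.23, and the 10 on the right have 7.05 to 7.56.

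The widest spread over arrays was that of Ifit3, an interferon-induced antiviral protein of the IFIT family. Ifit3 stood at 10.26, 8.58, 9.33, 9.53 and 10.56 on Ctrl arrays 1 to 5, at 8.84, 8.72, 10.14, 9.32 and 9.62 on Dox arrays, and at 10.15, 9.88, 9.24, 8.28 and 9.11 on Dox + sACVR2B arrays. Its range was 2.29, from a signal of 260.4 on Dox + sACVR2B 4 to 1463 on Ctrl 5, and each label held both high and low arrays. A second probe of Ifit3 followed the first (r = 0.88 over 15 arrays).

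Oasl2, of the family of oligoadenylate synthetases that sense double-stranded RNA, varied in the same way. It stood at 9.95, 8.79, 8.90, 9.76 and 10.16 on Ctrl arrays 1 to 5, at 9.01, 8.94, 9.67, 9.17 and 9.23 on Dox arrays, and at 9.71, 9.68, 8.50, 8.34 and 9.25 on Dox + sACVR2B arrays. Ctrl 1, 4 and 5 held the 3 highest values. Rsad2, the radical SAM enzyme viperin, which makes a chain terminator of viral RNA, stood at 9.66, 8.55, 8.72, 9.51 and 9.72 on Ctrl arrays, at 8.47, 8.60, 9.45, 8.98 and 9.42 on Dox arrays, and at 9.83, 9.35, 9.11, 8.40 and 9.18 on Dox + sACVR2B arrays. Here the top array was labelled Dox + sACVR2B and the lowest 2 were Dox + sACVR2B 4 and Dox 1.

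Irf7, the transcription factor that amplifies type I interferon production, stood at 7.79, 6.36, 6.87, 7.29 and 7.65 on Ctrl arrays 1 to 5, at 6.80, 6.29, 7.67, 7.28 and 6.80 on Dox arrays, and at 7.37, 7.23, 7.0, 6.43 and 6.95 on Dox + sACVR2B arrays. Its range was 1.5, and 8 of the 10 arrays of high Cdkn1a lay above the other 5.

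Usp18, the protease that removes ISG15 and dampens the type I receptor, was the only member whose arrays did not overlap by Cdkn1a. Usp18 stood at 8.27, 7.49, 7.63, 8.11 and 8.40 on Ctrl arrays 1 to 5, at 8.08, 7.32, 8.41, 8.40 and 8.19 on Dox arrays, and at 8.27, 8.08, 7.84, 7.72 and 7.60 on Dox + sACVR2B arrays. The 10 arrays of high Cdkn1a lay between 7.84 and 8.41 and the other 5 between 7.32 and 7.72. Such a separation, with the 10 arrays above, was seen for 1 of 36 members, and for 2.39% of all 11450 genes above noise (274), so 1 member is near the background. The opposite separation was seen for 0 members and 1.9% of all genes.

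Ifi27, a small membrane protein used in humans as a blood marker of interferon exposure, did not follow the other type I members. It stood at 10.50, 10.85, 10.81, 10.75 and 10.36 on Ctrl arrays 1 to 5, at 10.60, 10.62, 10.75, 10.33 and 10.35 on Dox arrays, and at 10.62, 10.54, 10.69, 10.63 and 10.90 on Dox + sACVR2B arrays. The whole range was 0.57, and the 3 highest arrays (Dox + sACVR2B 5, Ctrl 2 and Ctrl 3) were all among the 5 of low Cdkn1a.

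The remaining type I members above noise had ranges from 0.35 (Parp9) to 1.68 (Bst2). Among them were the signalling subunit Stat2, with 6.73 to 7.58, the ubiquitin-like Isg15, with 6.37 to 7.52, and Ifit2, with 7.42 to 8.91. The RNA sensors Ddx58 (RIG-I) and Dhx58 (LGP2) each ranged over 0.56, and the RNA-activated kinase Eif2ak2 over 0.42. The arrays Ctrl 1 or Ctrl 5 were highest for 16 of the 24 type I members above noise, and Dox 2 or Dox + sACVR2B 4 were lowest for 15.

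Of the interferon-gamma members, the guanylate-binding proteins Gbp2 and Gbp3, GTPases that attack microbial vacuoles, followed the type I genes. Gbp2 stood at 9.86, 8.99, 9.31, 9.26 and 9.85 on Ctrl arrays 1 to 5, at 8.82, 9.21, 9.83, 9.52 and 9.52 on Dox arrays, and at 9.78, 9.80, 9.11, 8.87 and 9.13 on Dox + sACVR2B arrays. Gbp3 stood at 9.55, 8.40, 8.64, 8.80 and 9.15 on Ctrl arrays 1 to 5, at 8.29, 8.63, 9.25, 8.92 and 8.76 on Dox arrays, and at 9.16, 9.03, 8.45, 8.17 and 8.49 on Dox + sACVR2B arrays. For both genes Ctrl 1 was highest and Dox 1 was low although its Cdkn1a signal was high. A second probe of Gbp3 had r = 0.96 with the first. Probes of such gene families may also bind transcripts of near copies.

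Igtp, an immunity-related GTPase, stood at 8.60, 7.68, 8.39, 8.40 and 8.87 on Ctrl arrays 1 to 5, at 8.07, 8.14, 9.16, 8.99 and 8.81 on Dox arrays, and at 8.57, 8.46, 8.37, 7.90 and 8.40 on Dox + sACVR2B arrays. Tap1, a subunit of the peptide transporter that feeds MHC class I, stood at 6.84, 5.88, 5.90, 6.25 and 6.62 on Ctrl arrays 1 to 5, at 6.12, 5.64, 6.78, 7.01 and 6.62 on Dox arrays, and at 6.56, 6.64, 6.58, 6.04 and 6.17 on Dox + sACVR2B arrays. For Tap1, 9 of the 10 arrays of high Cdkn1a lay above the other 5, Dox 1 at 6.12 being the exception. Tap1 was dim, with a signal of 0.0 on Dox 2 and 78.6 at most.

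Irgm1 and B2m were the interferon-gamma members of highest signal. Irgm1, a regulator of the immunity-related GTPases, stood at 13.10, 13.23, 13.18, 13.29 and 13.19 on Ctrl arrays 1 to 5, at 13.13, 13.37, 13.13, 13.05 and 13.33 on Dox arrays, and at 13.05, 13.12, 13.07, 13.29 and 13.01 on Dox + sACVR2B arrays, a range of only 0.35. Its probes disagreed: a second probe of lower signal had r = -0.21 with this one and r = 0.77 with the mean of the interferon-gamma list. B2m, the light chain of MHC class I, stood at 12.42, 12.22, 12.17, 12.55 and 12.46 on Ctrl arrays 1 to 5, at 11.90, 12.30, 12.19, 12.16 and 12.04 on Dox arrays, and at 12.26, 12.13, 11.71, 12.07 and 12.25 on Dox + sACVR2B arrays. The 3 highest B2m values were those of Ctrl 1, 4 and 5, and the lowest was that of Dox + sACVR2B 3.

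**Figure D2:**
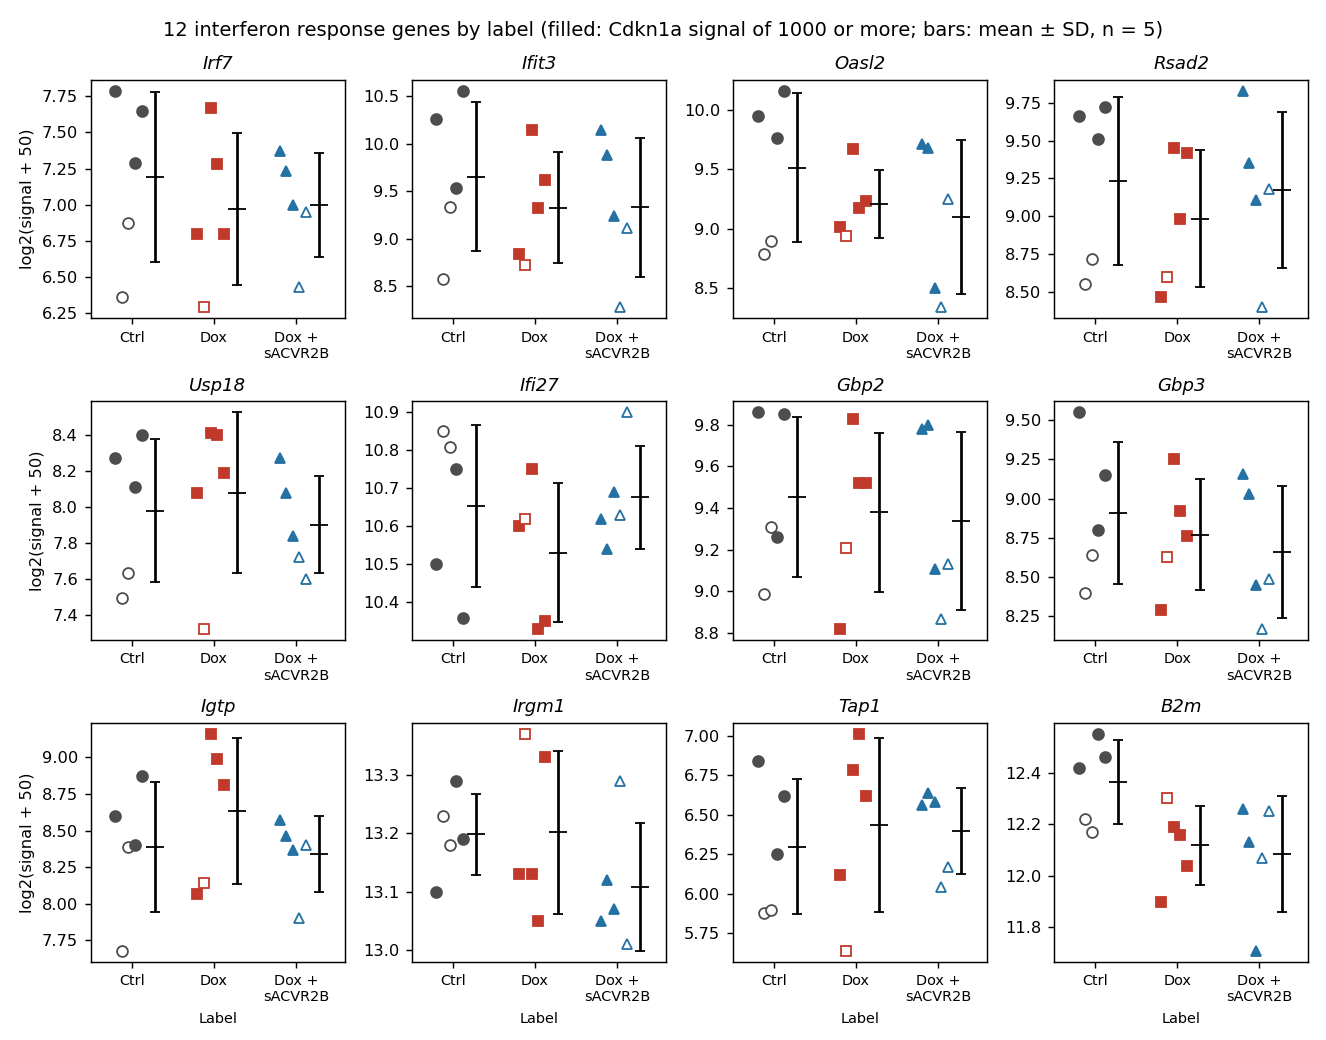
Levels of 12 members, as log2(signal + 50), for the arrays of each label, with black bars for the mean ± SD (n = 5) and filled symbols for a Cdkn1a signal of 1000 or more. Filled symbols lie above open ones for Usp18, at 7.84 or more against 7.72 or less, and every label holds a wide spread for Ifit3.

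The other interferon-gamma members above noise were the transcription factors Irf1 (9.12 to 10.11) and Irf8 (6.61 to 7.48), the MHC class I activator Nlrc5 (5.90 to 7.04), the transporter subunit Tap2 (7.88 to 8.59), the peptide editor tapasin, Tapbp (6.27 to 7.01), and the GTPase Iigp1 (5.48 to 6.34, above noise on 6 arrays). The chemokine Cxcl10 was above noise on 1 array.

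Members were compared with the mean of the rest of their list over the 15 arrays, as a description, since the points share arrays and normalization. Among the 24 type I members above noise the median r was 0.75, with 10 above 0.8 and 21 at 0.5 or more. Closest were Ifit3 (0.95), Stat2 and Isg15 (0.93 each), and Irf7 and Oasl2 (0.92 each). Parp9, an ADP-ribosyltransferase family member, had r = 0.23, and Ifi27 (r = -0.32) and Zbp1, a sensor of Z-form nucleic acids (r = -0.34), ran the other way. Both of the latter had small ranges, 0.57 and 0.43. Over the 10 arrays of high Cdkn1a alone, r was -0.07 for Ifi27 and 0.27 for Zbp1. A second Ifi27 probe, with a mean signal of 1430 beside 1534, had r = -0.07 with the type I mean over 15 arrays.

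The interferon-gamma list held together less, with a median r of 0.35 over 12 members. Gbp3 (0.94) and Gbp2 (0.87) were closest, followed by Igtp (0.61). Irf8, a factor of myeloid cells, had r = -0.57, Irgm1 r = -0.28 and Iigp1 r = -0.21. Isg15 and Parp14, type I members, had r = 0.93 and 0.91 with the mean of the interferon-gamma list. The means of both lists, over members above noise, had r = 0.87 with each other. Of the interferon-gamma members, Gbp3 (0.89), Gbp2 (0.88), Igtp and Tap1 (0.71 each) had the highest r with the type I mean. Irf8 (-0.57), Irgm1 (-0.39) and Iigp1 (-0.10) were below 0.

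**Figure D3:**
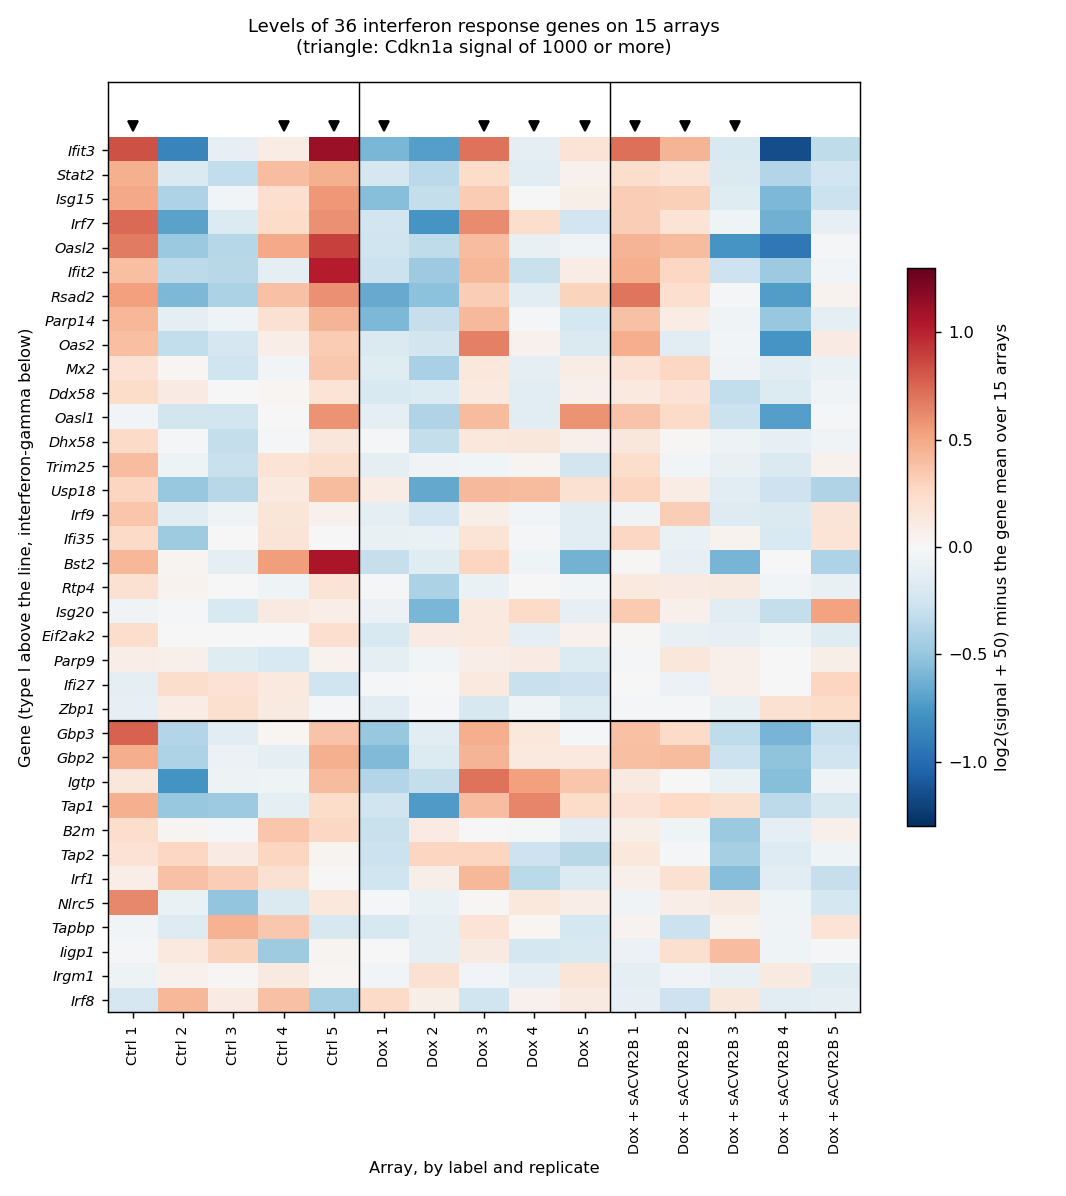
Rows are the 36 members above noise, columns the 15 arrays by label, and colours the log2(signal + 50) minus the gene's mean over arrays, from blue (lower) to red (higher). Ctrl 1 and Ctrl 5 are red for most type I genes and Dox + sACVR2B 4 is blue, while Ifi27 and Zbp1 at the foot of the type I block change little (ranges of 0.57 and 0.43).

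**Figure D4:**
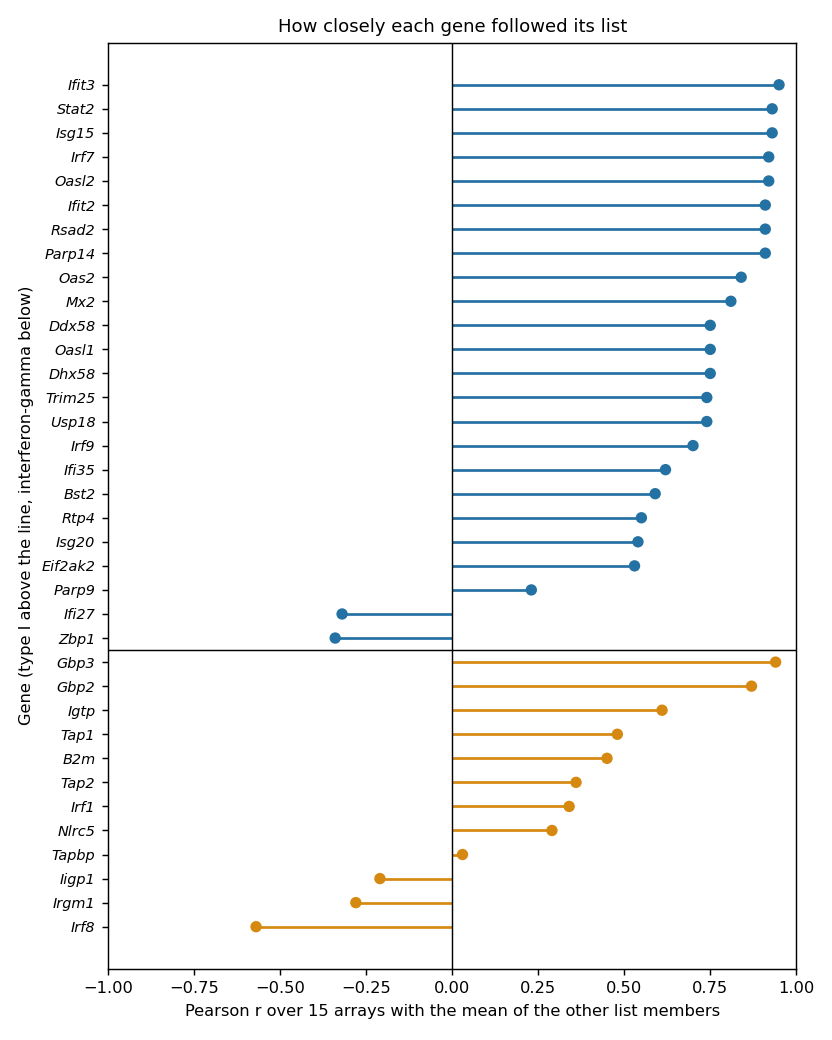
Pearson r over 15 arrays between each of 36 members and the mean of the other members of its list, blue for type I and orange for interferon-gamma. Ifit3 is highest at 0.95 and Irf8 lowest at -0.57.

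The first comparison asked what doxorubicin did to these genes 20 h after injection. As labelled, Dox against Ctrl gave 0 members called of 36 at an adjusted p under 0.05 (limma with Benjamini-Hochberg adjustment over 21307 probes), beside 0.0% of all probes. At an unadjusted p under 0.05 there were 2 members and 2130 probes. Those 2 were Bst2, which tethers virions to the cell membrane (log2 fold change -0.56, 95% interval -0.99 to -0.13, adjusted p = 0.394), and B2m (log2 fold change -0.25, SE 0.12, adjusted p = 0.492). Bst2 stood at 7.90, 7.50, 7.34, 8.01 and 8.53 on Ctrl arrays 1 to 5, at 7.17, 7.31, 7.75, 7.41 and 6.85 on Dox arrays, and at 7.48, 7.36, 6.86, 7.47 and 7.07 on Dox + sACVR2B arrays. The Bst2 values of the groups overlapped, and its 3 highest arrays were Ctrl 1, 4 and 5. Over all members with a probe the median log2 fold change was -0.17 for type I and -0.08 for interferon-gamma, against 0.01 over all probes.

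The intervals were wide. Ifit3 differed by -0.32 (95% interval -1.12 to 0.47, adjusted p = 0.795) and Irf7 by -0.22 (-0.80 to 0.35, adjusted p = 0.806), so that a rise or a fall of moderate size lay within them. Irgm1, with little spread, differed by 0.01 (-0.17 to 0.19, adjusted p = 0.986).

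Without the 6 arrays that went against their label, the same comparison rested on 4 Dox and 2 Ctrl arrays. Then 2 members of 36 were called higher in Dox and 0 lower, beside 4.56% of all probes called higher (971 higher and 917 lower). Usp18 was higher by 0.71 on the log2 scale (SE 0.15, adjusted p = 0.0161, limma) and Tap1 by 0.74 (SE 0.19, adjusted p = 0.0359, limma). The share of members is near that of all probes. The type I median turned from -0.17 to 0.11, and the interferon-gamma median was -0.08 in both fits. Ifit3 was at 0.53 (adjusted p = 0.338, limma) and Bst2 at -0.12 (adjusted p = 0.774, limma).

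The second comparison asked what sACVR2B-Fc added to doxorubicin. For Dox + sACVR2B against Dox, limma called 0 of 36 members and 0.0% of all probes, and at an unadjusted p under 0.05 there were 0 members and 881 probes. The medians were 0.06 for type I and -0.06 for interferon-gamma members, against 0.0 over all probes. Ifit3 differed by 0.00 (95% interval -0.79 to 0.80), Rsad2 by 0.19 (-0.39 to 0.77) and Igtp by -0.30 (-0.77 to 0.18), with adjusted p of 1.0, 0.996 and 0.996 (limma). Without the 6 arrays 0 members and 0.0% of probes were called, with 0 members and 1135 probes at an unadjusted p under 0.05, and the medians were 0.08 and -0.02.

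The third comparison set Dox + sACVR2B against Ctrl and shares its arrays with the other comparisons. Again 0 of 36 members and 0.0% of probes were called by limma, with 3 members and 1910 probes at an unadjusted p under 0.05. The 3 were Bst2 (log2 fold change -0.61, SE 0.20, adjusted p = 0.469), B2m (-0.28, SE 0.12, adjusted p = 0.521) and Irf1 (-0.34, SE 0.15, adjusted p = 0.535). The medians were -0.08 for type I and -0.12 for interferon-gamma, against 0.0 over all probes. Without the 6 arrays limma called 0 members, beside 3.11% of all probes called higher, and 6 members had an unadjusted p under 0.05, all higher, beside 2696 of the 21307 probes. The smallest adjusted p was 0.0633, for Tap1 (log2 fold change 0.70). The type I median was then 0.21.

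**Figure D5:**
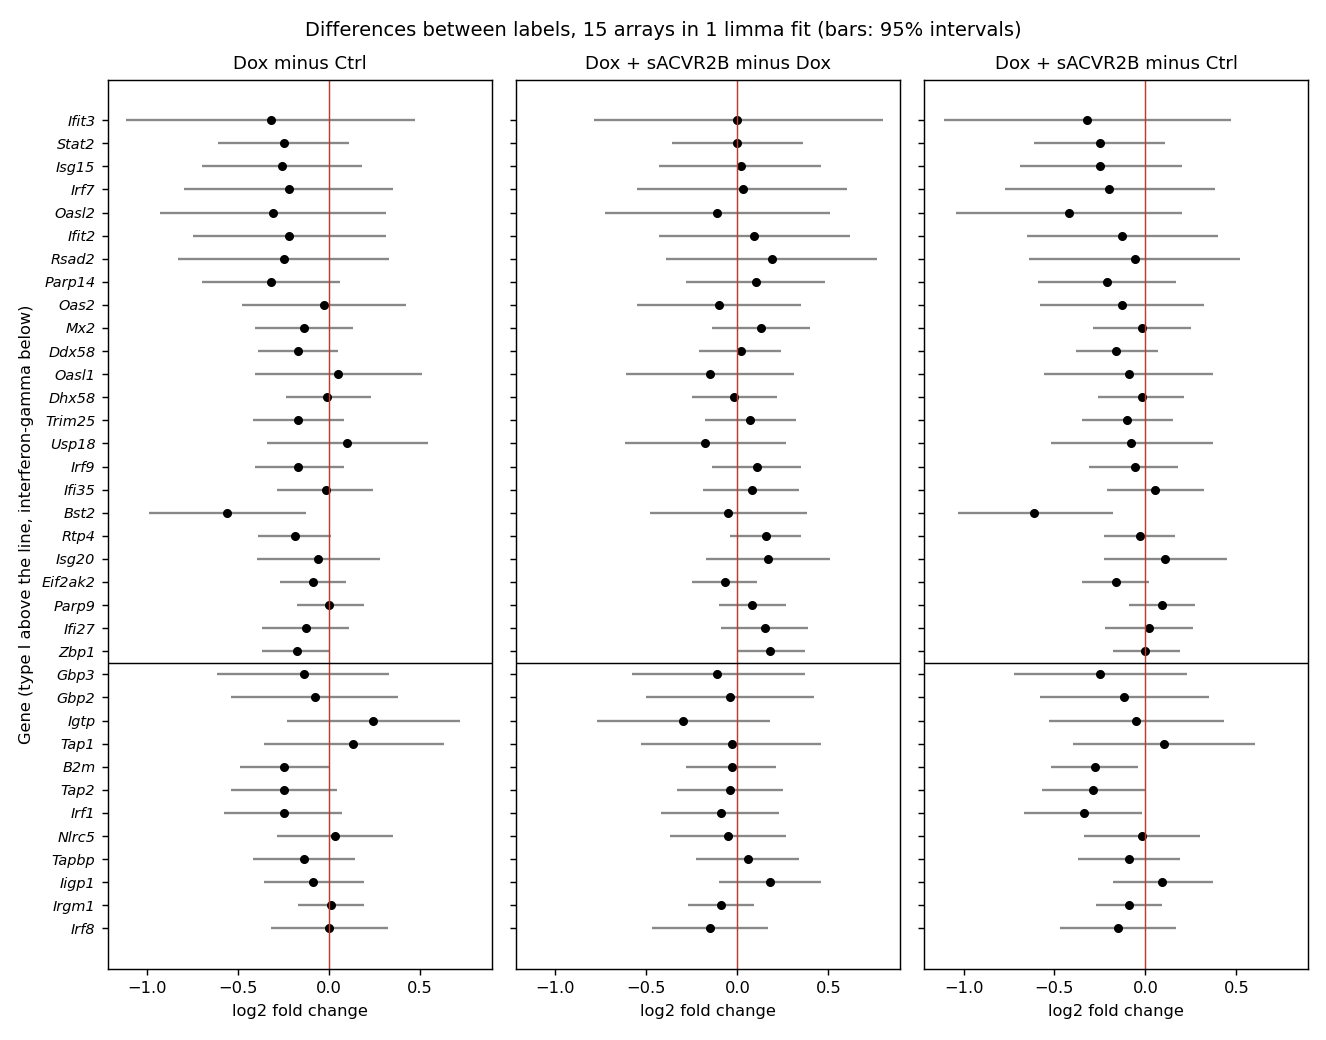
Log2 fold change (point) and 95% interval (bar) of 36 members in each comparison of labels, all 15 arrays in 1 limma fit, with a red line at 0. The interval of Bst2 lies below 0 in the comparisons with Ctrl (-0.99 to -0.13 for Dox), but no member is called after adjustment.

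Other genes of the pathway were looked at from lists written by function. Of the ligands, Ifnb1, Ifng, Ifna2, Ifna4, Ifnk and Ifnl3 (listed as Il28b) did not pass the noise filter, nor did the receptor chain Ifnar1. Of 11 receptor and signalling genes above noise limma called 0 in any comparison with all arrays. Ifngr1, the ligand-binding chain of the interferon-gamma receptor, had the smallest p, with a log2 fold change of -0.39 for Dox against Ctrl (SE 0.11, adjusted p = 0.33) and -0.41 for Dox + sACVR2B against Ctrl (adjusted p = 0.429). Next were Irf5 (0.78, adjusted p = 0.456, Dox against Ctrl) and the shared receptor chain Il10rb (-0.30, adjusted p = 0.598, Dox + sACVR2B against Ctrl). Irf3, the factor that induces Ifnb1, was called lower in Dox than in Ctrl without the 6 arrays (log2 fold change -0.56, adjusted p = 0.021, limma), beside 4.3% of all probes called lower.

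Of 9 nucleic acid sensors and adaptors above noise, 0 were called with all arrays. Tmem173 (STING), the adaptor of cytosolic DNA sensing, had a log2 fold change of -0.34 for Dox against Ctrl (adjusted p = 0.408) and -0.29 for Dox + sACVR2B against Ctrl (adjusted p = 0.534). The Toll-like receptor adaptor Myd88 was at -0.29 for Dox against Ctrl (adjusted p = 0.384). Tmem173 was the 1 gene of this list called without the 6 arrays, lower in both comparisons with Ctrl, at -0.56 (adjusted p = 0.0279, limma) and -0.66 (adjusted p = 0.0255, limma), beside 4.3% and 2.41% of all probes called lower. The levels of Tmem173 were 6.92, 7.11, 7.11, 6.82 and 6.71 on Ctrl arrays, 6.49, 6.74, 6.80, 6.34 and 6.57 on Dox arrays, and 6.38, 6.55, 6.43, 6.83 and 7.02 on Dox + sACVR2B arrays. Ctrl 2 and 3, of low Cdkn1a, were the 2 highest arrays for Tmem173.

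Of 9 inhibitors of interferon signalling above noise, 0 were called with all arrays. Without the 6 arrays 2 were called higher in Dox than in Ctrl, namely Usp18, which is also a member, and Ptpn2, a phosphatase of JAK and STAT proteins, beside 4.56% of all probes called higher. Ptpn2 had a log2 fold change of 1.07 for Dox (adjusted p = 0.00743, limma) and 0.80 for Dox + sACVR2B (adjusted p = 0.0368, limma), against 0.38 for Dox with all arrays (adjusted p = 0.631). It stood at 6.93, 5.80, 6.03, 6.21 and 7.01 on Ctrl arrays, at 6.93, 5.92, 6.78, 7.46 and 6.78 on Dox arrays, and at 6.87, 6.69, 6.57, 6.75 and 6.38 on Dox + sACVR2B arrays. Socs3 was at -0.40 for Dox + sACVR2B against Ctrl (adjusted p = 0.578) and Trim24 at -0.25 for Dox against Ctrl (adjusted p = 0.509).

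Of 25 other interferon-stimulated genes above noise, 0 were called in any comparison, with or without the 6 arrays. With all arrays 5 had an unadjusted p under 0.05 for Dox against Ctrl, all lower, beside 2130 of the 21307 probes (1107 lower). For Dox + sACVR2B against Dox there were 0, beside 881 probes. For Dox + sACVR2B against Ctrl there were 2, both lower, beside 1910 probes (811 lower). The median log2 fold changes of the 25 genes were -0.16, 0.04 and -0.16. Cxcl9, a chemokine of interferon-gamma, had -0.65 for Dox + sACVR2B against Ctrl (adjusted p = 0.453), and Samd9l, an antiviral factor, had -0.36 for Dox against Ctrl (adjusted p = 0.394).

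Markers of other cell types that muscle can hold were read beside the members. Neutrophil markers S100a8 and S100a9 were above noise, and Mpo and Retnlg were not. The summed signal of the 4 was 5.2 to 253.7 on Ctrl and 15.6 to 247.7 on Dox arrays. It was 39.3 to 414.4 on Dox + sACVR2B arrays. The r of each list was taken from the mean log2 level of its markers, not from the sum. For the 4 neutrophil markers r was 0.51 against the type I mean over 15 arrays. By Cdkn1a, the neutrophil sum had a median of 195.6 (95.5 to 414.4) on the 10 arrays of 1000 or more and of 39.3 (5.2 to 253.7) on the other 5. Macrophage and monocyte markers (7 of 8 above noise, all but Itgam) summed to 802.7 to 2192, 906.3 to 2234 and 715.5 to 1685. Their mean log2 level had r = -0.46 with the type I mean. The macrophage sum ran the other way by Cdkn1a, with medians of 1092 on the 10 arrays and 1550 on the 5. The single markers did not all follow the sum. Without the 6 arrays limma called 1 of 7 higher in Dox than in Ctrl (adjusted p = 0.031), beside 4.56% of all probes called higher. In that fit 4 of the 7 were above 0 for Dox against Ctrl, and 1 for Dox + sACVR2B against Ctrl, with 0 called. Lymphocyte markers were above noise for Prf1 only, 1 of 8, and Cd3e, Cd3g, Cd3d, Cd8a, Cd4, Ms4a1 and Nkg7 were not. Dendritic cell markers were above noise for Siglech only, 1 of 4. Endothelial markers (5 of 5) summed to 4129 to 5474 on Ctrl and 3176 to 4227 on Dox arrays. They summed to 3650 to 4078 on Dox + sACVR2B arrays. By this sum every Dox + sACVR2B array lay below every Ctrl array, and Dox and Ctrl overlapped. The mean log2 level of the 5 markers had r = 0.21 with the type I mean. By Cdkn1a, the endothelial sum had medians of 3986.7 on the 10 arrays and 3976.5 on the 5. Among the 5 endothelial markers, limma without the 6 arrays called 2 lower in Dox than in Ctrl (smallest adjusted p = 0.0203). For Dox + sACVR2B against Ctrl, limma then called 1 lower (adjusted p = 0.0255). Of all probes, 4.3% and 2.41% were called lower. The part of all these cell types in the levels of the members was not tested.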

How the data were processed

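Members and gene lists were written by name from general knowledge, with earlier results of these data known. The deposited values are linear signal intensity after background subtraction and quantile normalization by the authors, and 34% of them are below 0. A table of non-normalized values, with 30 columns whose names match no label, was not used. Probes were named from the platform annotation, 34885 with 1 gene, 18 with several and 10378 with none. The noise SD was 7.52, and probes with a signal above 12.4 on at least 5 arrays were kept (21307). An offset of 50 was added before log2. Each gene was represented by its probe of highest mean signal.

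Groups were compared with limma (version 3.58.1, R 4.3.3) in 1 two-sided fit over 3 groups. Adjustment was by Benjamini-Hochberg across kept probes, with a threshold of 0.05. The fit was run on simulated data with changes of known size. There the probes were independent and the labels held no mixture by Cdkn1a, so that run does not show how the fit performs under this mixture. Named with all values were, in each list, the 4 members of largest SD over arrays and the 2 of highest signal, plus any called or not overlapping by Cdkn1a. Bst2 and Irf1 were added after their values were seen. Slide and batch are not given in the sources used here. The number of arrays limits the precision. The p-values rest on the spread between the mice of a label. Each label held arrays of high and of low Cdkn1a, so that this spread, and the width of the intervals, includes that mixture. Alternatives were offsets of 26 and 100, other filters, 2-group fits, array weights, a trended and robust prior, a replicate block, the median over probes, cyclic loess and leaving out arrays. Plots were drawn with matplotlib 3.10.9.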

Additional observations from a re-analysis of the deposited data

Results flagged for a closer look

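Among 51 sets of 5 arrays checked (Cdkn1a, 14 members and both list means in 3 groups), 1 value stood apart from its group. Cdkn1a on Dox 2 was at 7.50 as log2(signal + 50), while the other Dox arrays lay between 11.23 and 11.99. The gap was 0.83 of the group's range, above the critical value of 0.71. Chance alone flags about 5% of such sets. The same array had the lowest levels of Irf7, Usp18 and Tap1.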

How the results depend on the processing

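Each comparison of labels was recomputed under 25 settings, 15 of which left out 1 array. The counts were 0 with all arrays and were within their limit only if they stayed at 0. A median was within its limit if it moved by less than the SD of the list's per-array mean within labels or within the sets by Cdkn1a. For type I and labels this SD was 0.2, so a median within its limit could still have changed direction. Under the 10 other settings, 125 counts and medians were within their limits and 5 were not. All 5 were in the fits without the 6 arrays whose Cdkn1a went against their label. There 2 members and 1888 probes were called for Dox against Ctrl, 1177 probes for Dox + sACVR2B against Ctrl, and the type I medians were 0.11 and 0.21. The 2-group fits, the trended and robust prior and the replicate block leave fold changes as they are, so the medians could not move under them. Leaving out 1 array gave 0 to 2 probes called for Dox against Ctrl, 0 to 1 for Dox + sACVR2B against Ctrl (the highest counts came without Ctrl 5), and 0 members. Replicate numbers did not pair the samples, as deviations of same-numbered arrays correlated between -0.38 and 0.35. With a replicate block 0 members and 0 probes were called, and the block changed no call. The difference of medians by Cdkn1a was recomputed under part of the other settings only. It was 0.22 to 0.40 for type I (0.28 as reported) and 0.10 to 0.21 for interferon-gamma members (0.13), and 0.25 to 0.33 and 0.12 to 0.14 with 1 array left out.

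Of the log2 fold changes of 14 members, 27 values turned direction under the 10 settings, and none of these was past the threshold in either fit. Without the 6 arrays, Dox minus Ctrl was 0.53 for Irf7, 0.53 for Ifit3, 0.43 for Oasl2, 0.44 for Rsad2, 0.27 for Gbp2, 0.28 for Gbp3 and -0.04 for Irgm1. Dox + sACVR2B minus Dox was 0.03 for Oasl2, 0.14 for Gbp2 and 0.07 for Gbp3. Dox + sACVR2B minus Ctrl was 0.59 for Irf7, 0.80 for Ifit3, 0.45 for Oasl2, 0.79 for Rsad2, 0.51 for Usp18, -0.21 for Ifi27, 0.41 for Gbp2, 0.36 for Gbp3 and 0.43 for Igtp. With array weights, Dox minus Ctrl was -0.03 for Tap1, and Dox + sACVR2B minus Dox was 0.06 for Oasl2, 0.15 for Gbp2, 0.07 for Gbp3, 0.03 for Tap1, 0.05 for B2m, 0.03 for Bst2 and 0.01 for Irf1. The cause was not tested.

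With 1 array left out, Dox minus Ctrl ranged from -0.02 to 0.29 for Usp18, -0.19 to 0.06 for Gbp2, -0.27 to 0.02 for Gbp3, -0.04 to 0.04 for Irgm1 and -0.01 to 0.33 for Tap1. Dox + sACVR2B minus Dox ranged from -0.14 to 0.20 for Irf7, -0.20 to 0.27 for Ifit3, -0.26 to 0.08 for Oasl2, -0.18 to 0.08 for Gbp2, -0.23 to 0.01 for Gbp3, -0.23 to 0.11 for Tap1, -0.09 to 0.06 for B2m, -0.16 to 0.06 for Bst2 and -0.18 to 0.03 for Irf1. Dox + sACVR2B minus Ctrl ranged from -0.23 to 0.14 for Rsad2, -0.20 to 0.03 for Usp18, -0.05 to 0.07 for Ifi27, -0.23 to 0.07 for Igtp and -0.01 to 0.23 for Tap1. Signals near 0, as for Tap1 on Dox 2, limit what can be read from dim members.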

Other observations

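Genes outside the lists of members were ranked by Pearson r over the 15 arrays with the list means, taken over the members above noise. The ranking was out of 11414 genes above noise, as a description without a test. Closest to the type I mean were Ly6c1, a surface antigen of monocytes and endothelium (r = 0.93), Cmpk2, a mitochondrial nucleotide kinase that neighbours Rsad2 in the genome (r = 0.93), and H2-T23, a non-classical MHC class I gene (r = 0.92). They were followed by Hmgn5 (0.91), H2-Q7, H2-Q5, Serinc3, Trim30a, Ifitm3 and Apol9b (0.90 each). Ly6c1 ranged from 9.97 to 11.48 and Cmpk2 from 7.59 to 9.08 on the log2(signal + 50) scale. H2-Q7 and H2-Q5 are related genes, and whether their probes read 1 gene each was not checked.

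Closest to the interferon-gamma mean were Exoc8 (0.89), Gvin1, an interferon-induced GTPase, and Pced1a (0.88 each), Trim34a, Pold4, Atp6v1g2 and Tgfb3 (0.87 each), and Ulk1, Hmgn5 and H2-T23 (0.86 each). Of these 10, Hmgn5 and H2-T23 were also among the 10 closest to the type I mean.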
